A study of Drosophila melanogaster with 2 samples.

Results

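Binding of the zinc-finger protein CG1603 was examined at 10 core genes of the Wnt, Hedgehog and Dpp signalling pathways of *Drosophila melanogaster*, out of 13968 protein-coding genes. The genes were listed by symbol, with earlier results of these data known, and all 10 were found in the annotation. They comprised 3 ligand genes (wg, hh and dpp), 3 receptor genes (fz, ptc and tkv) and 4 genes for intracellular components (dsh, arm, ci and Mad). A peak was counted for a gene where its summit, the base marked as its highest point, lay in the gene body or within 5 kb on either side.

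The libraries came from chromatin immunoprecipitation with sequencing on whole embryos of mixed sex, 0 to 16 h old, of a transgenic line that stably expresses CG1603 with GFP fused to its C-terminus. The series held this 1 group with 2 biological replicates, numbered 2 and 3, both from the same line, and no wild-type or untagged group. Chromatin was sheared by sonication. The description of the labels names an antibody against GFP, and the antibody field names CG1603. The promoter that drives the fusion is not given in the sources used here. In whole embryos a strong peak in few cells and a weak peak in many cannot be told apart.

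The peak lists of replicate 2, of replicate 3 and of the pooled replicates held 30000 peaks each. A reproducible list of 8963 peaks was identical to the 8963 strongest peaks of the pooled list, so that a rank in either is the same number, with rank 1 the strongest. Reproducible summits within 500 bp of a protein-coding transcription start site (TSS) made up 46.8% of that list.

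In the Wnt pathway, Wingless (wg) binds receptors of the Frizzled family (fz), and Dishevelled (dsh) passes the signal on, so that Armadillo (arm), the fly beta-catenin, is stabilised and acts with nuclear factors on transcription. Hedgehog (hh) binds Patched (ptc), which otherwise holds Smoothened inactive, and the signal changes the processing of the transcription factor Cubitus interruptus (ci). Dpp is a ligand of the bone morphogenetic protein type, and its type I receptor Thickveins (tkv) phosphorylates Mad, a Smad protein. In the fly embryo the Wnt and Hedgehog pathways maintain segment pattern, and Dpp patterns the dorsal side.

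All 10 genes had a reproducible summit in the gene body or within 5 kb, as did 63.7% of all protein-coding genes. Their windows were longer than most, with a median of 23.7 kb against 12.2 kb for all genes. Among all genes with windows of 10 to 15 kb the share was 58.5%, and among those over 50 kb it was 85.3%. In the longer lists all 10 genes were again marked, against 74.7% of all genes in the pooled list, 76.7% in replicate 2 and 77.0% in replicate 3.

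Summits at the genes' own TSSs were rarer. A reproducible summit lay within 500 bp of a TSS of wg, ci and Mad, or 3 of the 10 genes, against 35.2% of all genes. No receptor gene was among them. With the 8963 strongest peaks of replicate 2 the count was also 3 (ptc, ci and Mad, against 34.3% of all genes). With the 8963 strongest of replicate 3 it was 5 (wg, fz, ptc, arm and ci, against 37.4%). Thus ci was marked at its own TSS in each of these 3 lists, wg, fz, ptc, arm and Mad in some of them, and hh, dpp, tkv and dsh in none. The ci summit was at the downstream of its 2 TSSs, and with the most upstream TSS of each gene alone 2 genes (wg and Mad) were marked on the reproducible list. The share of all genes was not counted in that way, and the 35.2% allows any TSS of a gene. In the classes of window length that hold the 10 genes, 31.2% to 49.8% of all genes had a reproducible TSS summit.

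The 10 windows together held 46 reproducible summits. Of these, 24 lay inside the gene away from its TSSs (52.2%), 11 elsewhere in the flanks (23.9%), 8 at the TSS of another protein-coding gene (17.4%) and 3 at an own TSS (6.52%). Over all protein-coding genes, 22555 pairs of a gene and a summit were counted in the same way, and a summit can stand in several pairs. Of those pairs 14.1% lay inside the gene, 18.1% in the flanks, 42.9% at the TSS of another gene and 24.8% at an own TSS. The 10 genes are longer than most, and this difference in place was not tested.

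**Figure D1:**
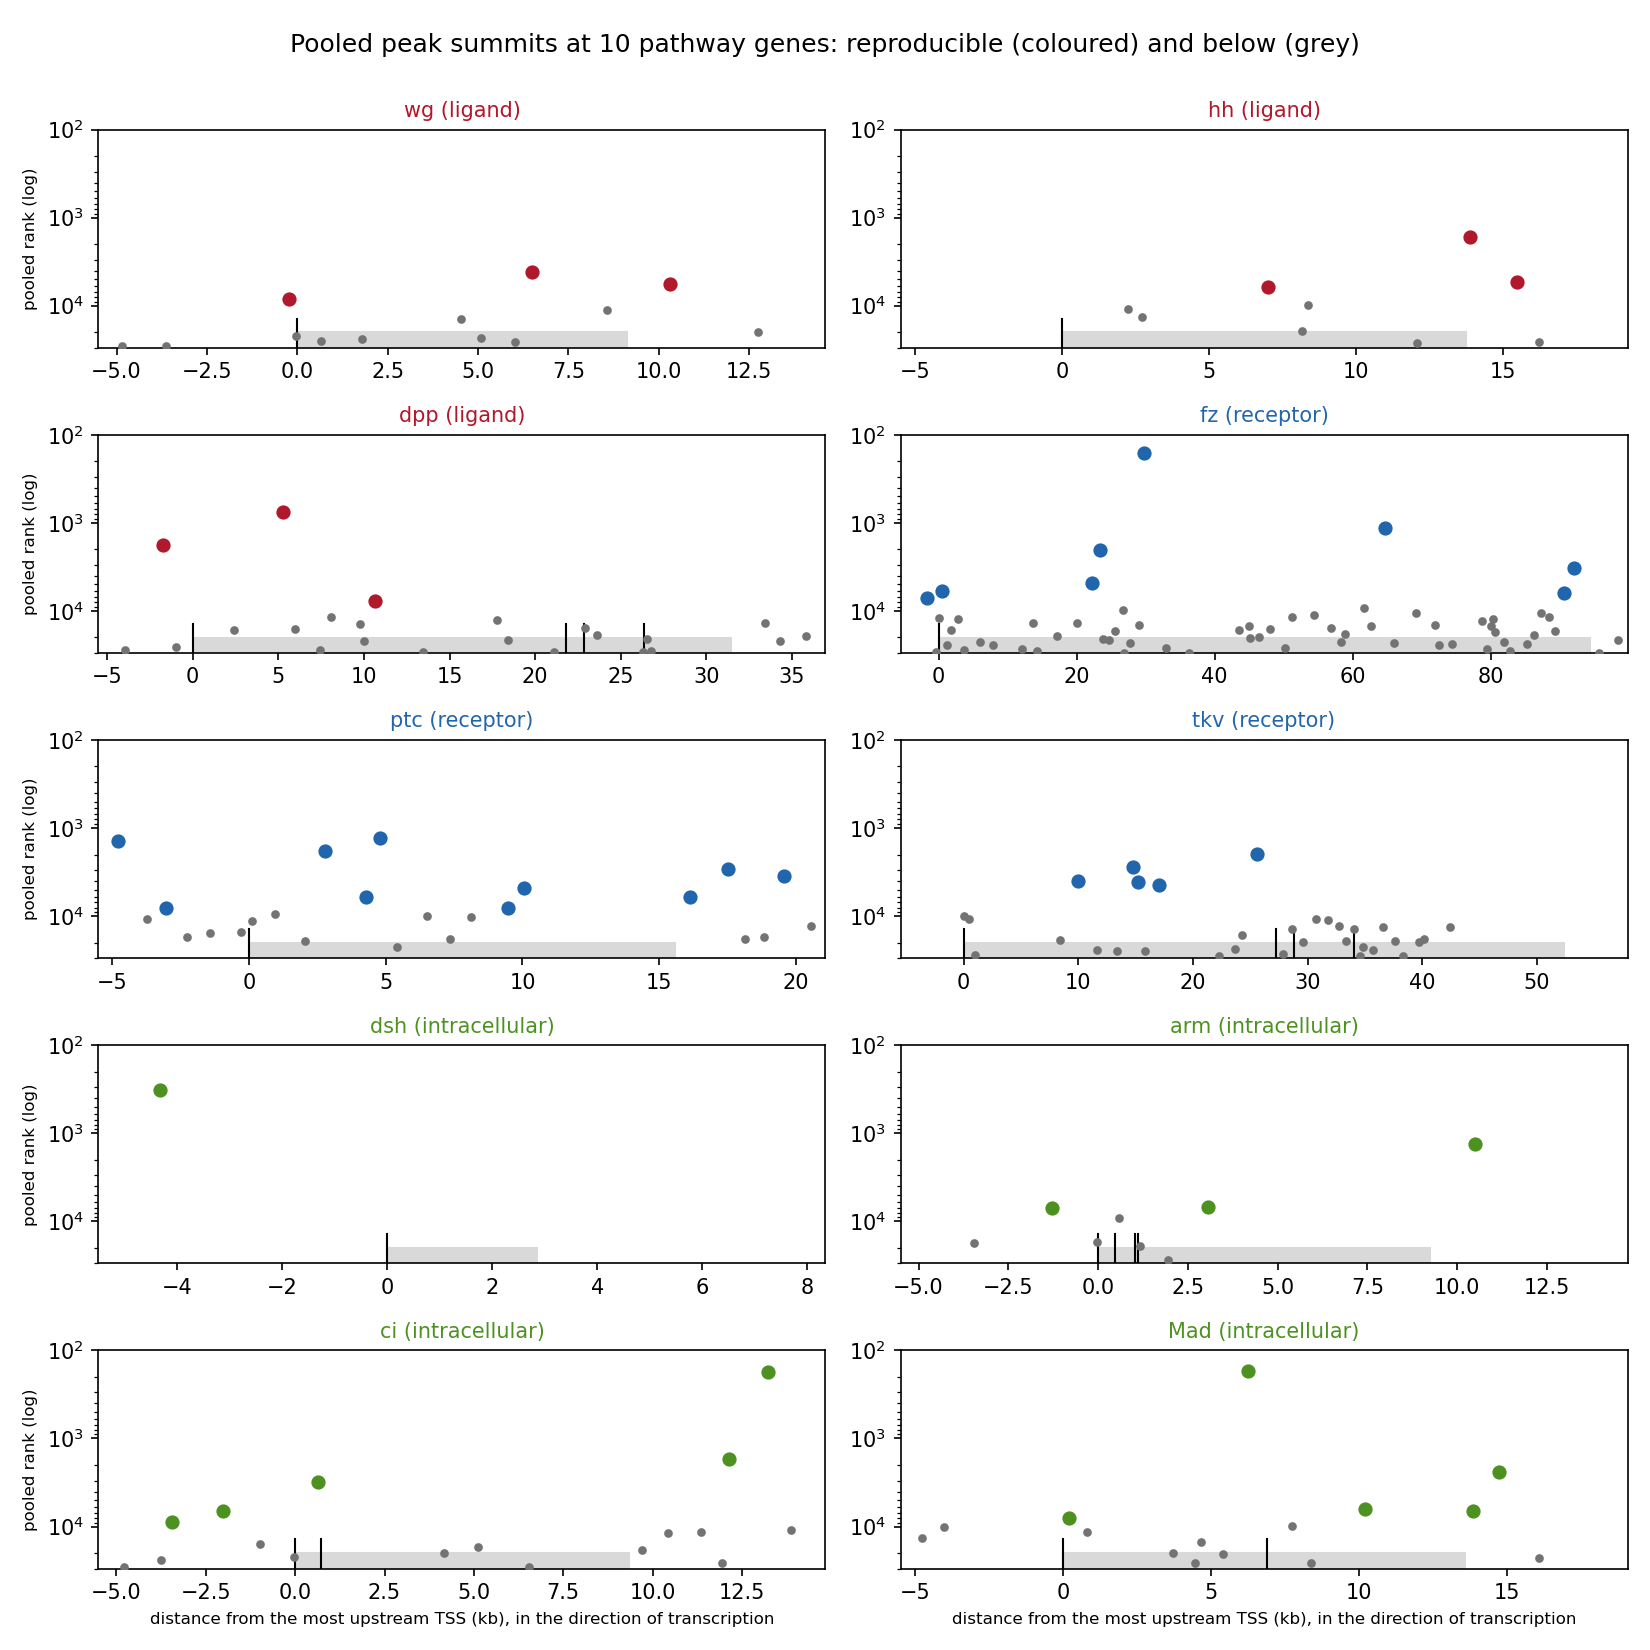
Each panel shows a gene as a light bar with black ticks at its TSSs, plotted by distance in kb from the most upstream TSS in the direction of transcription. Points are pooled peak summits by rank on a log axis, coloured where reproducible (46) and grey where below rank 8963. The 5 summits above rank 1000 are in the windows of fz, Mad, ci, dsh and dpp, and none of them is at an own TSS.

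wg, on chromosome 2L at positions 7307159 to 7316265 on the plus strand, had 3 reproducible summits. The summit nearest to its TSS lay 238 bp upstream with rank 8343. It had rank 13021 in replicate 2 and 6900 in replicate 3, so that in replicate 2 it fell outside the strongest 8963. A summit in an intron, 6501 bp downstream of the TSS, was stronger, at rank 4168 (3346 in replicate 2 and 5820 in replicate 3). The remaining summit lay 1213 bp beyond the 3' end of the gene with rank 5625 (5118 and 6918 in replicates 2 and 3). The bases within 50 bp of the promoter summit, read like all others printed here from the RefSeq release 6 assembly (dm6), are shown because among wg, hh and dpp this is the single promoter on the reproducible list. They contain a run of alternating c and a, 30.7% of them are marked as repeats in the reference, and none of the 4 motifs searched was found in them.
wg promoter, chr2L:7306871-7306971, plus strand: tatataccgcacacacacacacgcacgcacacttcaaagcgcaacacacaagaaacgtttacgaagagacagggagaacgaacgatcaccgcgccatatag

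The hh gene (chromosome 3R, 23128169 to 23141906, minus strand) had 3 reproducible summits, and 2 of them were at other genes. The strongest, of rank 1648 (1930 in replicate 2 and 1402 in replicate 3), lay 152 bp beyond the 3' end of hh and 36 bp from a TSS of CG31457. The second, of rank 5375 (7414 and 4715 in replicates 2 and 3), lay 16 bp from a TSS of CG31365. Within hh itself an intron held a summit of rank 6201 (6869 and 6203), at 7008 bp from the TSS of hh and 6917 bp from that of CG31457. At the TSS of hh the pooled list had no peak, and replicate 3 had a peak of rank 29908, near the end of its list. In the 8963 strongest peaks of replicate 2 the hh window held 5 summits, against 3 in those of replicate 3.

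dpp, on chromosome 2L at positions 2428372 to 2459823 on the plus strand, carried the strongest summit of the ligand genes. It had rank 760 with signal 1065, and rank 704 in replicate 2 and 804 in replicate 3. This summit lay in an intron, 5277 bp downstream of the most upstream of 4 TSSs. A second summit of rank 1798 lay 1720 bp upstream of that TSS (1610 in replicate 2 and 2139 in replicate 3). The weakest, of rank 7813, was in an intron 10649 bp from the nearest TSS (7763 and 8527). No TSS of dpp had a reproducible summit, although 4 weaker pooled peaks lay there, the best of rank 15733. The bases around the strongest dpp summit, shown as the leading intronic site of the ligand genes, held none of the 4 motifs.
dpp intron, chr2L:2433599-2433699, plus strand: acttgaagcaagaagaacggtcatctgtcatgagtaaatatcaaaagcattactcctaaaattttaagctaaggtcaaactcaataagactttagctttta

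Among the receptor genes, fz is a long gene on chromosome 3L (positions 14274343 to 14368639, plus strand, 94297 bp) and had 8 reproducible summits. Its strongest, of rank 163 and signal 3037, was the strongest of all 46 and lay in an intron 29725 bp downstream of the TSS. It was nearer to a TSS of CG13482, at 25278 bp. It had rank 170 in replicate 2 and 150 in replicate 3. Further intronic summits had ranks 1150, 2034, 3266, 4824 and 6272, of which that of rank 1150 was nearer to CG13482 and those of rank 3266 and 6272 to CG13481. By nearest TSS, 4 of the 8 summits stayed with fz. Close to the TSS, a summit of rank 6012 lay 525 bp downstream in 5' untranslated sequence, just outside the 500 bp limit, and a summit of rank 7069 lay 1738 bp upstream. Both replicates had these summits, at rank 6973 and 6283 for the first of the pair and 6789 and 7753 for the other. The strongest fz summit is shown for comparison with the dpp and Mad introns, and none of the 4 motifs was found there.
fz intron, chr3L:14304018-14304118, plus strand: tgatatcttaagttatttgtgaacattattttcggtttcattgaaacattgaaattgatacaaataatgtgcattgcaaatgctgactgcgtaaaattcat

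The ptc gene (chromosome 2R, 8649649 to 8665223, plus strand) had 10 reproducible summits, the most of the 10 genes. They gave 3.91 summits per 10 kb of window, compared with 4.69 in the strongest 8963 peaks of replicate 2 and 4.30 in those of replicate 3. The median of the 965 genes with windows of 20 to 30 kb was 0.862, and 0.518% of those genes had a density as high as that of ptc. The strongest summits were at 4804 bp downstream of the TSS in an intron (rank 1307, with 1243 in replicate 2 and 1362 in replicate 3), 4775 bp upstream (rank 1409, with 1531 and 1108), and 2793 bp downstream in an intron (rank 1847, with 1819 and 2009). In all, 5 summits were in introns, 2 upstream and 3 downstream of the gene. Of the downstream summits, that of rank 6062 lay 53 bp from a TSS of Acsl, which encodes a long-chain acyl-CoA synthetase, and those of rank 2939 and 3521 lay inside Acsl. The intronic summits of rank 4778 and 8178 were also nearer to a TSS of Acsl, at 6100 and 6677 bp. By nearest TSS, 5 of the 10 summits stayed with ptc.

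The TSS of ptc was marked in each replicate by a different peak. Replicate 2 had a peak of rank 6580 with its summit 300 bp upstream of the TSS, and replicate 3 had a peak of rank 5756 with its summit 69 bp downstream. Neither overlapped any peak of the other replicate. In the pooled list these peaks had ranks 15131 and 11434, so that ptc had a TSS summit among the strongest 8963 of each replicate and none on the reproducible list.

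tkv, on chromosome 2L at positions 5219000 to 5271384 on the minus strand, had 5 reproducible summits, all in introns. The strongest had rank 1985 (2106 in replicate 2 and 2029 in replicate 3) and lay 1657 bp from the nearest of 4 TSSs. The others, of rank 2757, 4037, 4110 and 4400, lay 10005 to 17076 bp downstream of the most upstream TSS. They were nearer to a TSS of Cyp4ac1, a cytochrome P450 gene, at 2622 to 9693 bp. At the most upstream TSS of tkv itself a pooled peak of rank 9912 fell just below the reproducible list, ranked 10092 in replicate 2 and 11274 in replicate 3.

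dsh, on chromosome X at positions 11355881 to 11358724 on the plus strand, had a single summit in its window, and every list held it. It had rank 322 and signal 1840, with rank 330 in replicate 2 and 307 in replicate 3. It lay 4326 bp upstream of the TSS of dsh, inside CG1737 and 947 bp from a TSS of that gene. The gene body of dsh held no peak in any of the 4 lists. With windows of 2 kb in place of 5 kb dsh was the single gene of the 10 without a reproducible summit, and the next summit outside its window, at 5094 bp from the gene, had rank 8920. The dsh site is shown with CGATA, the core sequence bound by the insulator protein BEAF-32, in capitals.
dsh upstream, chrX:11351505-11351605, plus strand: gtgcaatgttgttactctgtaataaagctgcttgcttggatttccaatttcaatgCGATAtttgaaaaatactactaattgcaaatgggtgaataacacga

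arm, on chromosome X at positions 1891401 to 1900646 on the minus strand, had 3 reproducible summits, and 2 were at the TSSs of neighbours. The strongest, of rank 1323 (1634 in replicate 2 and 1099 in replicate 3), lay 105 bp from a TSS of mRpL16, which encodes a protein of the mitochondrial large ribosomal subunit. The same summit was also within 500 bp of a TSS of trr, which encodes a histone methyltransferase. A summit of rank 7063 lay 10 bp from a TSS of Ldaf1 (8194 and 6723 in replicates 2 and 3). A TSS of the non-coding gene asRNA:CR43864 was also within 500 bp of that summit. Inside arm an intron held a summit of rank 6824 (6744 and 7776). The TSSs of arm had pooled peaks, the best of rank 9255 with rank 10103 in replicate 2 and 7811 in replicate 3, so that arm was marked at its own TSS in the strongest 8963 peaks of replicate 3 and not in those of replicate 2.

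ci, on chromosome 4 at positions 47710 to 57041 on the minus strand, had 5 reproducible summits. At its downstream TSS a summit 59 bp away had rank 3084 and signal 432.3, the strongest own-TSS summit of the 10 genes. Replicate 2 had it at rank 3847 and replicate 3 at 2672. A TSS of the non-coding gene asRNA:CR43957 was also within 500 bp of this summit. The strongest summit of the window was at a neighbour, 51 bp from a TSS of PlexB, a plexin receptor gene, with rank 177 (163 in replicate 2 and 198 in replicate 3). A summit of rank 1706 lay 1126 bp from the same gene's TSS, and within 500 bp of a TSS of the non-coding gene lncRNA:CR44440. Upstream of ci, summits at 2030 and 3450 bp had ranks 6622 and 8899, and these were the 2 member summits whose surrounding 101 bp were over 50% repeat-masked. Chromosome 4 as a whole had 106 reproducible peaks. The PlexB promoter site is shown because it holds the most CGATA matches of the 46 summits, 3 in all, read on the minus strand and in capitals.
PlexB promoter near ci, chr4:43779-43879, plus strand: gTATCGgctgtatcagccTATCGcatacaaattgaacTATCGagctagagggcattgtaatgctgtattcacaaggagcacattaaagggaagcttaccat

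Mad, on chromosome 2L at positions 3146056 to 3159643 on the minus strand, had 5 reproducible summits. The strongest had rank 170 and signal 2952, with rank 176 in replicate 2 and 158 in replicate 3. It lay in an intron, 653 bp from the downstream of 2 TSSs, and so outside the 500 bp limit. At the upstream TSS a summit 193 bp away had rank 7956 (7864 in replicate 2 and 10627 in replicate 3), and a TSS of gkt, a tyrosyl-DNA phosphodiesterase gene, was also within 500 bp of it. Beyond the 3' end, summits of rank 2413 and 6704 lay 129 bp from a TSS of toc and 59 bp from a TSS of ND-B14.5B, a subunit gene of respiratory complex I. Another intron held a summit of rank 6251. Sequences at the strongest summit and at the own-TSS summit are shown side by side, with the untranslated bases of the own-TSS window left out, and neither held any of the 4 motifs.
Mad intron, chr2L:3153356-3153456, plus strand: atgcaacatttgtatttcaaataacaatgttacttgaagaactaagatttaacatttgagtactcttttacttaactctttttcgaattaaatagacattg
Mad promoter, chr2L:3159400-3159493, plus strand: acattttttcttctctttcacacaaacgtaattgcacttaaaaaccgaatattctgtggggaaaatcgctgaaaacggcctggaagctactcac

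Set side by side, ligand genes had 9 reproducible summits in 84.3 kb of window, receptor genes 23 in 192 kb and intracellular genes 14 in 75.0 kb. This made 1.07 summits per 10 kb at ligand genes, 1.20 at receptor genes and 1.87 at intracellular genes, against 0.952 over the windows of all protein-coding genes. With the strongest peaks of replicate 2 the densities were 1.19, 1.35 and 1.87 in the same order of roles, and with those of replicate 3 they were 1.07, 1.35 and 2.00. Leaving out summits at TSSs of other genes gave 0.830 for ligand, 1.14 for receptor and 1.20 for intracellular genes, a count added after the data were seen. The 0.952 of all genes includes such summits, which were 42.9% of the pairs of a gene and a summit. It is therefore not a like value for these 3 densities. Of the receptor summits 10 were at ptc, while fz and tkv had 0.767 and 0.801 per 10 kb. Among all genes, the median density was 1.04 with windows of 15 to 20 kb and 0.435 with windows over 50 kb. The genes fz and tkv belong to the latter class, where 29.9% and 27.4% of genes had a density at least as high. The part of window length in the densities by role and by pathway was not tested. With 3, 3 and 4 genes in 2 libraries, the roles were described and not tested. By pathway, the Hedgehog genes had 2.62 summits per 10 kb (18 summits), the Dpp genes 1.02 (13) and the Wnt genes 0.965 (15), again with 10 of the 18 Hedgehog summits at ptc.

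Near the 5 kb limit of the windows, the farthest summits inside were at 4775 bp from ptc (rank 1409) and 4326 bp from dsh (rank 322). The nearest outside were at 5094 bp from dsh (rank 8920) and 5266 bp from ptc (rank 385). The last of these was stronger than any summit inside the ptc window, so that the strength given for ptc depends on the width chosen.

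**Figure D2:**
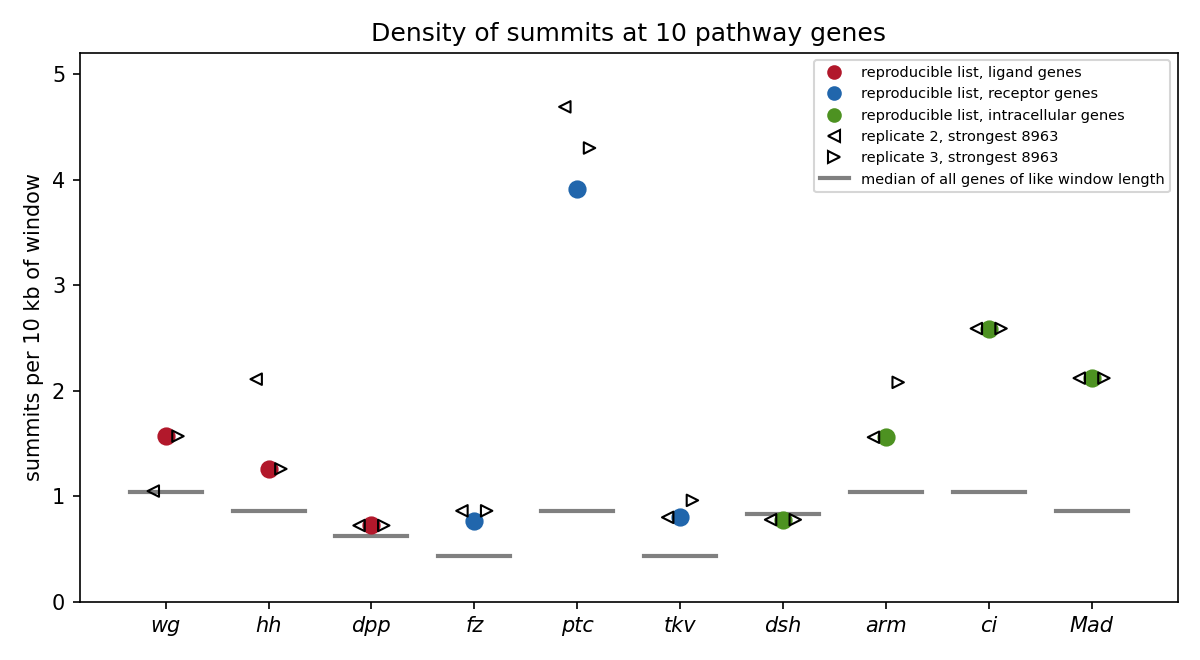
Reproducible summits per 10 kb of window (vertical axis) are shown for each gene as filled points, with the strongest 8963 peaks of each replicate as open triangles and grey lines for the median of all genes in the same window length class. The point of ptc, at 3.91, stands highest, and that of dpp, at 0.724, lowest.

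The place of the summits differed in number between the roles. Of the ligand summits 4 of 9 lay inside the gene away from its TSSs, of the receptor summits 17 of 23, and of the intracellular summits 3 of 14. At the TSSs of other genes lay 2 of the 9 ligand summits, 1 of the 23 receptor summits and 5 of the 14 intracellular summits. At own TSSs lay 1, 0 and 2. The receptor genes fz and tkv are the longest of the set, which gives introns more room in their windows, and the part of gene length in these numbers was not tested.

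**Figure D3:**
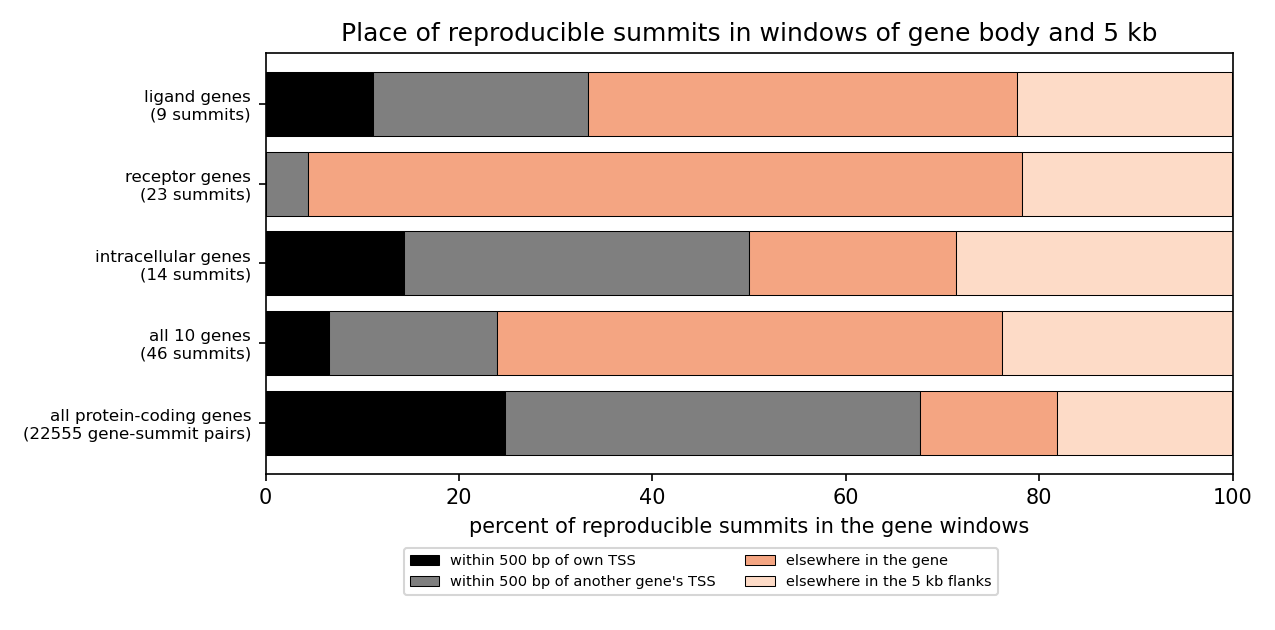
Bars give the percent of reproducible summits by place in the windows of ligand, receptor and intracellular genes, of all 10 genes, and of all protein-coding genes, where a summit can count for several genes. Places inside the gene away from TSSs make up 73.9% for receptor genes and 21.4% for intracellular genes, against 14.1% for all protein-coding genes.

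A smaller share of the pooled peaks was on the reproducible list at ligand and receptor genes than at intracellular genes. As that list is the 8963 strongest pooled peaks, the share reflects the strength of peaks and not the overlap of replicates. The difference between roles was not tested. Of the pooled peaks in the windows, 20% were on the reproducible list for ligand genes (9 of 45), 19.5% for receptor genes (23 of 118) and 34.1% for intracellular genes (14 of 41). Over all genes the share was 39.2%, counted in pairs of a gene and a peak, where a peak can stand in several pairs. Counted once each, 8963 of the 30000 pooled peaks were on the reproducible list. At fz the share was 12.9% (8 of 62 pooled peaks) and at dpp 13.0% (3 of 23). When all pooled peaks were counted, 8 of the 10 genes had a summit within 500 bp of a TSS, against 47.0% of all genes, and hh and dsh had none. Full lists gave 7 genes for replicate 2, against 46.7% of all genes, and 9 for replicate 3, against 50.4%.

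Both replicates had a peak at each of the 46 reproducible summits. The ranks differed by 1.21 times in the median and by 2.14 times at most, at the fz summit of rank 3266 (4796 in replicate 2 and 2241 in replicate 3). At 21 summits replicate 2 gave the stronger rank and at 25 replicate 3, and at 3 summits the peak of at least 1 replicate was below its strongest 8963. Spearman's rho of the signals between replicates was 0.903 over these 46 summits, and 0.874 over the 8751 peaks of the whole reproducible list that both replicates overlapped. These are correlations across sites, which share the same libraries. The reproducible list was itself made from these replicates, so agreement at its peaks is no separate measure of reproducibility. Of all listed peaks in the 10 windows, 73.9% of the 176 in replicate 2 overlapped a replicate 3 peak and 70.2% of the 191 in replicate 3 overlapped a replicate 2 peak. Over the whole lists the shares were 69.9% and 70.2%. By role, the shares for replicates 2 and 3 were 64.9% and 70.3% at ligand genes and 73.3% and 66.4% at receptor genes. At intracellular genes they were 84.2% and 80.5%, and the roles were not tested.

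**Figure D4:**
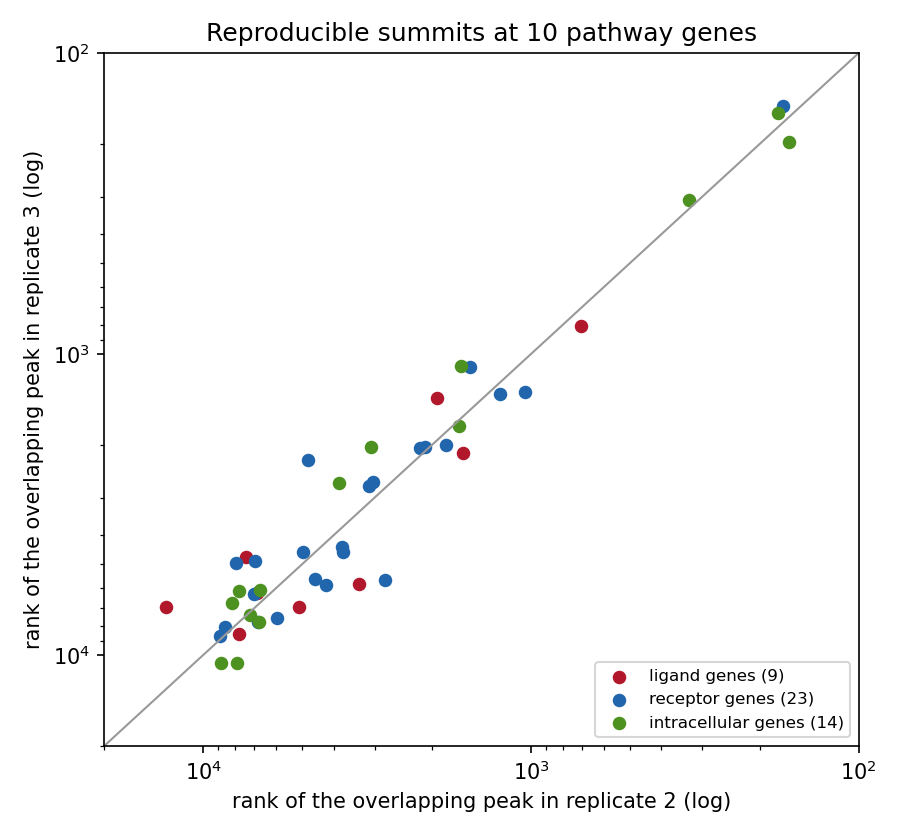
Each point is 1 of the 46 reproducible summits, by the rank of its overlapping peak in replicate 2 (horizontal) and replicate 3 (vertical), both on log axes with stronger peaks to the upper right. The summits of rank 163, 170, 177 and 322 stand apart near the diagonal at fz, Mad, ci and dsh, and the wg promoter summit is the farthest left, at 13021 in replicate 2.

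Among the strongest 1000 reproducible peaks were 5 of the 46 summits (10.9%), compared with 11.2% of the list by definition. The strongest summit of each gene had a median rank of 1033.5, against 2272 for all genes with a summit, and against 1734 to 2380 in the classes of window length. For dsh, ci and Mad the strongest summit was matched or exceeded by 4.82%, 3.78% and 4.25% of genes in the same class, and for fz by 5.13%. That of ci was at PlexB, and that of dsh inside CG1737. At the other end, 58.1% of the genes in its class had a summit at least as strong as that of wg.

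Sequence within 50 bp of the summits was searched on both strands for TATCGATA (the DNA replication-related element, DRE), CGATA, GGTCACACT (Motif 1, bound by M1BP) and GAGAGAG (bound by the GAGA factor). The DRE contains CGATA on both strands. TATCGATA was present at 2 of the 46 summits (4.35%), compared with 4.61% of all 8963. CGATA was present at 9 (19.6%), in the windows of wg, hh, fz, ptc, dsh, ci and Mad, compared with 23.3% of all. Neither GGTCACACT nor GAGAGAG was found at any of the 46, against 2.54% and 1.09% of all. Among all reproducible summits TATCGATA was in 8.87% of those within 500 bp of a protein-coding TSS and 0.860% of the others. For CGATA these shares were 35.3% and 12.7%. Of the 46 member summits 11 lay within 500 bp of a protein-coding TSS, against 46.8% of the list, so the shares of all summits are not like for like. The median GC content of these 101 bp was 33.7% at the 46 summits and 36.6% over the list. Both member summits with TATCGATA were at promoters of neighbours, those of CG31457 beside hh and of ND-B14.5B beside Mad. These DRE sites are shown with TATCGATA in capitals and 8 bases on either side.
CG31457 promoter near hh, chr3R:23127968-23127991, plus strand: cgatttgtTATCGATAttttcagt
ND-B14.5B promoter near Mad, chr2L:3145748-3145771, plus strand: ctctcagcTATCGATAgcgtgcga

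A further 49 genes of the same pathways were listed by role. A reproducible summit lay in the gene body or within 5 kb for 38 of them (77.6%), against 63.7% of all genes, and within 500 bp of a TSS for 23 (46.9%), against 35.2% of all genes. These genes had longer windows than most, with a median of 17.6 kb against 12.2 kb for all genes. They ranged from 10.9 kb at tsg to 104 kb at fz2. Among all genes with windows of 10 to 15 kb the shares were 58.5% in the window and 31.2% at a TSS. With windows of 15 to 20 kb they were 75.8% and 45.4%, and over 50 kb they were 85.3% and 49.1%. The part of window length in the shares of the 49 genes was not tested. The count at TSSs was 21 with the strongest peaks of replicate 2 and 29 with those of replicate 3. By role, the TSS counts were 2 of 8 further ligand genes, 4 of 13 genes for release, spread or processing of ligands, 6 of 10 receptor and co-receptor genes and 11 of 18 intracellular genes. The differences between roles were not tested.

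Of the further ligand genes, Wnt5 had a TSS summit of rank 5688 (6514 in replicate 2 and 4729 in replicate 3). gbb, another ligand of the bone morphogenetic protein type, had its strongest TSS summit at rank 6247, within 500 bp of a TSS of ytr as well. scw and Wnt10 had no reproducible summit in their windows. Among genes that handle ligands, wls, needed for Wnt secretion, had a TSS summit of rank 3943, which was shared with Adck5. The glypican genes dlp and dally had TSS summits of rank 5207 and 7553, and rasp, whose product acylates Hedgehog, of rank 7084. The rasp window also held a summit of rank 119, which was not at a TSS of rasp. At cv-2, which encodes a secreted modulator of Dpp-type ligands, 4 summits lay in the window and none at a TSS, and disp, needed for Hedgehog release, had none in its window.

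Of the 10 further receptor genes, 4 had no reproducible TSS summit (boi, fz4, sax and wit). Among the 6 with one, arr, the Wnt co-receptor gene, had a TSS summit of rank 1297 at 40 bp (1591 in replicate 2 and 1077 in replicate 3). That of smo, the Hedgehog signal transducer gene, had rank 1420 at 214 bp (1580 and 1304) and lay also within 500 bp of a TSS of CG17078. For put, the type II receptor gene for Dpp, the rank was 1715 at 30 bp (1767 and 1706), close to His4r as well. fz3 followed with rank 3119 at 4 bp (3913 and 2548). boi and fz4 had 4 and 3 reproducible summits elsewhere in their windows.

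Among the intracellular genes of the wider list, sgg, which encodes the kinase GSK3 that marks Armadillo for degradation, had the strongest TSS summit, with rank 186 and signal 2777 at 199 bp. It had rank 209 in replicate 2 and 161 in replicate 3. CkIalpha, the casein kinase of the same destruction step, followed at rank 1075 (1213 and 956), then lgs, a nuclear partner of Armadillo, at rank 1540 (1401 and 1669). slmb, whose product is an F-box protein that recognises phosphorylated Armadillo and Ci, had rank 1629 (1710 and 1681) and shared its summit with CG5793. Apc2 and Axn, both genes of the Armadillo destruction complex, had 1 reproducible summit each in their windows, of rank 1311 and 5080, and none at a TSS.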

How the data were processed

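Peak lists from chromatin immunoprecipitation with sequencing were analysed for 2 libraries in 1 group. Per the deposited description files, peaks were derived from reads and a control for replicate 2, for replicate 3 and for the pooled replicates, and the reproducible list came from these 3 lists. The caller is not given in the sources used here. Ranks came from the deposited signal values, whose scale is not stated, and replicates were set side by side by rank correlation. Summits came from the deposited offset in each peak. Coordinates are on dm6 per the labels and are given from 1, inclusive. The lists hold no read counts, so the depth is unknown and no interval is given.

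Genes were taken from Ensembl release 115 and bases from the RefSeq release 6 assembly. Both name the same assembly, and all peaks lay within its arms. TSSs were those of protein-coding transcripts. Overlap of peaks was at least 1 bp. The 10 genes, the further 49 and the motifs were chosen with earlier results of these data known. Further genes are named by a fixed rule: per role, up to 4 with a TSS summit by signal and up to 2 without in alphabetical order. Genes with a TSS within 500 bp of a member summit are named too. Other genes that hold a summit or have the nearest TSS, and sax and wit, were named after their values were seen. Alternatives changed the windows, the peak lists, the replicates and the assignment. Assignment of summits was tested on simulated peaks. Genes are not replicates, and no p-value was computed. Python 3.11.15, NumPy 2.4.6, pandas 2.3.3, SciPy 1.17.1 and matplotlib 3.10.9 were used.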

Additional observations from a re-analysis of the deposited data

How the results depend on the processing

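All 10 genes had a reproducible summit in the window under 6 of the 9 alternatives. The exceptions were windows of 2 kb and the gene body alone, where 9 had one (without dsh), and assignment to the nearest TSS, where 8 had one (without hh and dsh). The count of 46 summits was 26 in gene bodies alone, 25 among the stronger 50% of the list, 204 in the whole pooled list, 23 by nearest TSS, and 50 when either replicate was left out. Genes with a TSS summit numbered 3 to 5 without a replicate, 1 in the stronger 50% (ci), 8 in the pooled list and 2 with the most upstream TSS of each gene alone (wg and Mad, without ci). Of the 49 further genes, 24 had a summit in the gene body alone, against 38 with flanks, and 13 had a TSS summit in the stronger 50%, against 23. Numbers with shorter or longer lists follow from the list lengths. Of all protein-coding genes, 74.7% had a pooled summit in the window and 47.0% had one within 500 bp of a TSS. Without replicate 3 the share of all genes at a TSS was 34.3%, and without replicate 2 it was 37.4%. The share of all genes was not counted for other windows, the stronger 50%, the nearest TSS, any overlap or the most upstream TSS. Counts under those settings therefore cannot be called high or low against all genes.

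Densities per 10 kb at ligand, receptor and intracellular genes were 1.36, 1.15 and 1.76 with 2 kb, 1.05, 1.17 and 1.74 with 10 kb, 0.737, 1.05 and 1.43 in gene bodies, 0.475, 0.728 and 0.933 in the stronger 50%, 5.34, 6.14 and 5.47 in the pooled list, 0.712, 0.520 and 0.933 by nearest TSS, and 0.830, 1.14 and 1.20 without summits at TSSs of other genes. Any overlap of the peak gave 2.00 for intracellular genes. Leaving out a replicate gave 1.07 to 1.19, 1.35, and 1.87 to 2.00. Intracellular genes had the highest density except in the pooled list, where receptor genes did, and ligand genes had a higher density than receptor genes with 2 kb windows and by nearest TSS. Among the strongest 8963 peaks of each replicate, 86.0% at the 10 genes overlapped in either direction. No paired analysis was possible because the series holds 1 group. Peak lists carry no read counts, and the pooled list and each replicate list held 30000 peaks. A site missing from a list was therefore not listed, and cannot be called unbound or below detection.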

Other observations

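wg stands in a cluster of Wnt genes on chromosome 2L, in the order Wnt4, wg, Wnt6 and Wnt10. From 5 kb before Wnt4 to 5 kb beyond Wnt10 (positions 7250419 to 7382528, 132 kb), 17 reproducible summits were found, or 1.29 per 10 kb, with ranks of 1578 to 8343. A single one of the 17, the wg promoter summit, which was the weakest, lay within 500 bp of a protein-coding TSS. The strongest, of rank 1578, was in the Wnt4 window and had rank 1512 in replicate 2 and 1675 in replicate 3. Its nearest TSS was that of CG31909, at 4652 bp. Between Wnt4 and wg, upstream of wg and outside its window, 4 summits nearest to the wg TSS lay 8216 to 13541 bp from it. The strongest of these, at 11969 bp and 11066 bp, had ranks 1892 and 2545. Both replicates had peaks there, of rank 1974 and 1920 for the first of the pair and 2604 and 2621 for the other. The region was examined after the values at wg had been seen, and no test was made.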
